A study of Mus musculus with 6 samples.

Results

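The 9 genes described here, Ppp1r1b, Adcy5, Gnal, Gng7, Pde10a, Pde1b, Rgs9, Arpp21 and Arpp19, encode parts of the pathway that turns dopamine and adenosine signals into protein phosphorylation in the striatum. They were taken by name from a table of 24841 genes, and all 9 were present in it. Nuclei from frozen mouse striatum were profiled by single-nucleus RNA sequencing in 2 groups of 3 libraries. One group was wild type and the other was heterozygous for Celsr3, the gene of a large seven-transmembrane cadherin. No other allele or agent is named for either group, and strain, sex and age are not given in the sources used here. Each library is labelled as a biological replicate, no animal is named, and the p-values below measure the spread between these libraries.

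Medium spiny neurons, the projection neurons of the striatum, carry either D1 or D2 dopamine receptors. In the D1 type, dopamine acts through the G protein Golf, whose alpha and gamma subunits are the products of Gnal and Gng7, to activate adenylyl cyclase 5, the product of Adcy5; in the D2 type, adenosine receptors encoded by Adora2a use the same G protein and cyclase, and D2 receptors oppose them. The cyclic AMP made there activates protein kinase A, which phosphorylates DARPP-32 (Ppp1r1b), ARPP-21 (Arpp21) and ARPP-19 (Arpp19), while the phosphodiesterases Pde10a and Pde1b break cyclic nucleotides down and Rgs9 shortens the signal of inhibitory G proteins.

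The table held 48834 nuclei, between 7735 and 8875 per library, of which 47962 were kept after 872 nuclei (1.79%) were left out, which were doublet-scored or lay in clusters rich in doublet-scored nuclei. Its values are whole numbers, but the total per nucleus had a coefficient of variation of only 10.7%, so they are depth-corrected values and not raw counts, and the depth before correction is not known. A level below is the mean of these values per nucleus in a library, given as mean ± SD over libraries, and it can be compared between classes for 1 gene but not between genes. The median number of genes detected per nucleus ran from 2438.5 to 3005 across libraries, with the lowest value in wild-type replicate 1, and 274 barcodes (0.564%) occurred in more than 1 library. Clustering, run without the 9 genes, gave 17 marker-named classes, of which 14 had at least 20 nuclei in every library. Drd1 was 1.03 ± 0.12 in the D1 and 0.109 ± 0.018 in the D2 class, and Drd2 was 0.0820 ± 0.0098 against 4.01 ± 0.29 (SD, n = 6). Both genes are on the marker lists that named the classes, so these values describe the classes and do not check them. Celsr3 itself, the check of the labels, was lower in every heterozygous library of D1 MSN-like nuclei (0.0795, 0.101 and 0.101) than in every wild-type library (0.148, 0.169 and 0.180).

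In the 14 classes, 7 of the 9 genes had their 2 highest levels in D1 and D2 MSN-like nuclei; the exceptions were Arpp21, highest in glutamatergic neuron-like nuclei, and Arpp19, which had much the same level in several glial and vascular classes. The 8473 D1 and 7119 D2 MSN-like nuclei made up 32.6% ± 6.6 of the nuclei in a library (SD, n = 6) but held 80.8% ± 2.8 of the summed Rgs9 value, 74.4% ± 4.1 of Pde1b, 73.5% ± 3.7 of Pde10a, 67.6% ± 6.0 of Gnal, 66.8% ± 5.0 of Adcy5 and 64.5% ± 6.1 of Gng7. For Ppp1r1b the share was 47.3% ± 5.5, for Arpp21 42.8% ± 11 and for Arpp19 40.2% ± 6.3. Rgs9 thus had the highest mean share of the 9, and Arpp21 and Arpp19 had the lowest, within each other's spread. No test was made of these differences, because the classes come from the same nuclei.

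**Figure D1:**
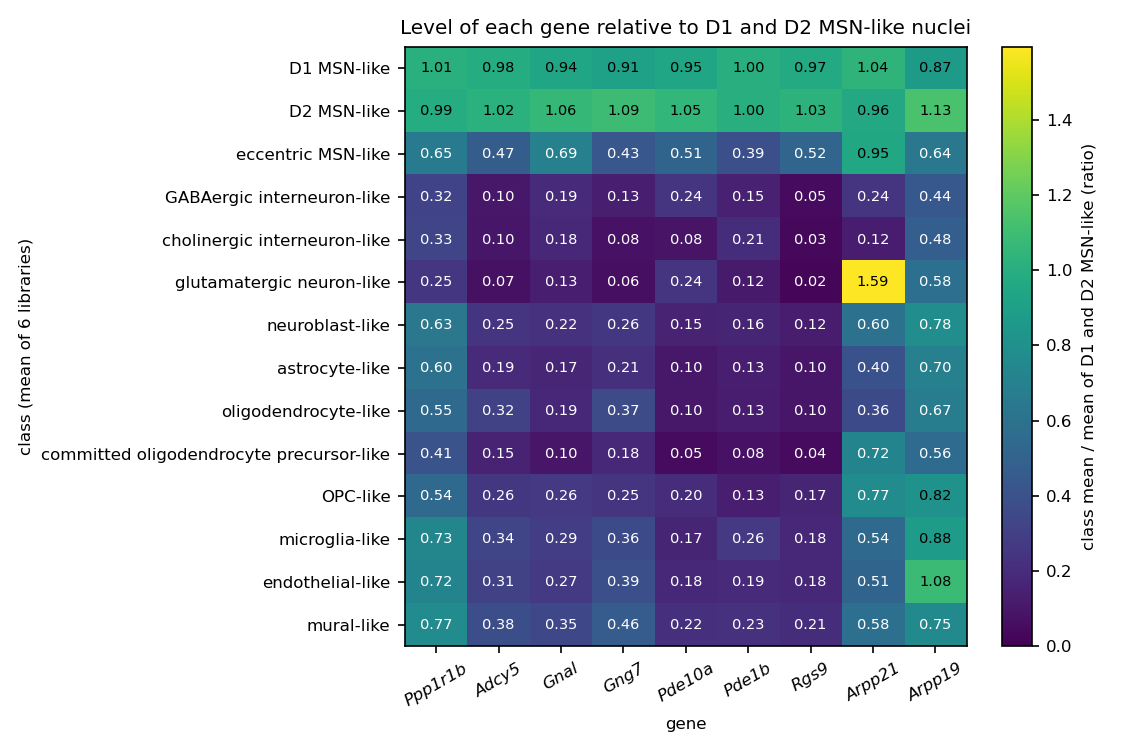
Level of each of the 9 genes (columns) in 14 classes (rows) as the ratio of the class mean over 6 libraries to the mean of D1 and D2 MSN-like nuclei. The D1 and D2 rows lie between 0.87 and 1.13 for every gene, Rgs9 falls to 0.02 in glutamatergic neuron-like nuclei, and Arpp21 reaches 1.59 there.

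Gnal, the stimulatory alpha subunit of the olfactory type, was highest in D2 MSN-like nuclei, with a lowest, median and highest library of 5.42, 5.98 and 6.48. The same 3 values in D1 MSN-like nuclei were 4.74, 5.36 and 5.86, which overlap with those of the D2 class. Eccentric MSN-like nuclei, a smaller MSN type marked by Otof and Casz1, came next at 3.95 ± 0.66, clear of mural-like nuclei below them at 1.97 ± 0.20. Gng7, the gamma subunit that pairs with it in striatal neurons, followed the same order at the top, with 3.31 ± 0.18 in D2 and 2.76 ± 0.17 in D1 MSN-like nuclei (SD, n = 6), 2 ranges that do not overlap within 1 SD. In eccentric MSN-like nuclei Gng7 stood at 1.32 ± 0.27, within 1 SD of mural-like nuclei at 1.41 ± 0.18.

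Rgs9, which speeds the shut-off of G protein signals and whose long brain form is enriched in striatum, showed the widest span of the 9 as a ratio of highest to lowest class. Measured from microglia-like nuclei, Pde10a was wider, with a D2 ratio of 6.32 against 5.61 for Rgs9. The lowest, median and highest library values of Rgs9 were 6.22, 6.54 and 6.72 in D2 MSN-like nuclei and 5.82, 6.18 and 6.35 in D1 MSN-like nuclei. Both lay far above GABAergic interneuron-like (0.305 ± 0.086), cholinergic interneuron-like (0.203 ± 0.10) and glutamatergic neuron-like nuclei (0.132 ± 0.048), all 3 below the 1.16 ± 0.13 of microglia-like nuclei, which serve as background here. Eccentric MSN-like nuclei lay in between at 3.30 ± 0.83, and their libraries ran from 1.97 to 4.34.

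Adcy5, the main adenylyl cyclase of medium spiny neurons, had ranges that overlapped between the D1 and D2 classes. Its level was 5.17 ± 0.37 in D2 and 5.01 ± 0.26 in D1 MSN-like nuclei, 2.41 ± 0.47 in eccentric MSN-like nuclei, and between 0.352 ± 0.064 and 0.518 ± 0.15 in the 3 other neuron classes (SD, n = 6).

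Both phosphodiesterases were highest in the D1 and D2 MSN-like classes. Pde10a, the dual cyclic AMP and cyclic GMP phosphodiesterase that is a drug target in the striatum, was 25.2 ± 0.97 in D2, 22.6 ± 0.80 in D1 and 12.3 ± 2.9 in eccentric MSN-like nuclei. It remained at 5.76 ± 1.2 in glutamatergic and 5.76 ± 0.94 in GABAergic interneuron-like nuclei, about the level of mural-like nuclei at 5.23 ± 0.69 (SD, n = 6). Pde1b, the calcium-activated enzyme, was 2.11 ± 0.086 in D1 and 2.10 ± 0.083 in D2 MSN-like nuclei, and 0.818 ± 0.19 in the eccentric class. Below that, Pde1b lay between 0.170 and 0.555 in all 11 remaining classes, with neighbouring classes overlapping within 1 SD.

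Ppp1r1b, 1 of the 3 substrates of protein kinase A, had a shallow gradient in this nuclear RNA from the MSN to the glial and vascular classes. Its lowest, median and highest library values were 0.654, 0.770 and 0.867 in D1 MSN-like nuclei and 0.681, 0.747 and 0.803 in D2 MSN-like nuclei, so the classes overlap. Mural-like nuclei followed at 0.580 ± 0.065 and microglia-like nuclei at 0.550 ± 0.081 (SD, n = 6), while cholinergic, GABAergic and glutamatergic neuron-like nuclei were the 3 lowest classes, at 0.251 ± 0.12, 0.244 ± 0.049 and 0.191 ± 0.021. The marker of medium spiny neurons best known at the protein level therefore gave an MSN mean only 1.30 times that of the highest glial or vascular class. The share of nuclei with a Ppp1r1b value of at least 1 differed more. It was 55.0% in D1 and 53.0% in D2 MSN-like nuclei, against 23.3% in mural-like and 23.9% in microglia-like nuclei.

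Arpp21, whose short product is a target of protein kinase A, was the one member led by another neuron type. Glutamatergic neuron-like nuclei had a lowest, median and highest library of 9.18, 10.6 and 15.4, all above the highest D1 (7.58), D2 (7.11) and eccentric MSN-like library (7.64). This did not hold for every cluster of that class. Arpp21 was 3.96 in cluster 22 (700 nuclei) and 3.60 in cluster 35 (184 nuclei), against 10.7 to 15.5 in the others. D1, D2 and eccentric MSN-like nuclei followed at 7.23 ± 0.35, 6.74 ± 0.33 and 6.63 ± 0.56, with neighbours overlapping within 1 SD, whereas GABAergic and cholinergic interneuron-like nuclei were the 2 lowest classes at 1.67 ± 0.18 and 0.864 ± 0.54. Oligodendrocyte precursor cell (OPC)-like nuclei stood at 5.38 ± 0.32 and committed oligodendrocyte precursor-like nuclei at 5.00 ± 0.49 (SD, n = 6), the highest of the glial classes; Pde10a in the committed class, 1.18 ± 0.16, was at the same time the lowest of all 14. Arpp19, whose product inhibits protein phosphatase 2A after phosphorylation by the Greatwall kinase Mastl, ranged only from 0.393 ± 0.071 in GABAergic interneuron-like to 1.02 ± 0.11 in D2 MSN-like nuclei. Arpp19 in D1 MSN-like nuclei was 0.779 ± 0.057, against 0.787 ± 0.12 in microglia-like nuclei. An Arpp19 value of at least 1 was found in 54.9% of D1 MSN-like and 30.5% of microglia-like nuclei.

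The gene Arpp21 spans chr9:112065091-112235938 on the minus strand of GRCm38 and carries the microRNA gene Mir128-2 within it on the same strand. Of the 2 mature products of that gene, the 3p one is shown because it is a regulatory RNA encoded within a member on the same strand; neither was measured here. Its sequence, from RefSeq on GRCm38.p6 at chr9:112118644-112118664, has the seed (bases 2 to 8) in capitals.
mmu-miR-128-3p: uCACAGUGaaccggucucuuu

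Depth differed between the classes. The 8 neuroblast, glial and vascular classes had median genes per nucleus between 1747 and 2458.5, the MSN classes between 3065 and 3369.5, and the 3 other neuron classes between 3531.5 and 3748. The shallow classes held higher values of Ppp1r1b, Adcy5 and Rgs9 than the deep non-MSN neuron classes, except that Rgs9 in the committed precursors (0.283 ± 0.051) was within the range of the latter. Arpp21 and Pde10a followed it only in part. Glutamatergic neuron-like nuclei had means above every shallow class for both, for Pde10a within 1 SD of mural-like nuclei. For Arpp21, GABAergic and cholinergic interneuron-like nuclei were below every shallow class. For Pde10a, the GABAergic mean was above every shallow class and the cholinergic one below all of them but the committed precursors. Within oligodendrocyte-like nuclei of the same library, Rgs9 was 0.876 ± 0.27 in nuclei with fewer genes than the median and 0.357 ± 0.074 in those with more, lower in the latter in 6 of 6 libraries. Within D1 MSN-like nuclei the same split gave 6.12 ± 0.29 and 6.18 ± 0.22 for Rgs9 (SD, n = 6), but other members moved with it. Pde10a was 24.6 ± 0.83 in D1 MSN-like nuclei with fewer genes and 20.7 ± 0.94 in those with more, and Arpp21 7.57 ± 0.36 and 6.89 ± 0.37, both lower in the latter in 6 of 6 libraries. Ppp1r1b was 0.696 ± 0.064 and 0.832 ± 0.11, higher in the latter in 6 of 6 libraries. A class can hold clusters that differ in both depth and level, so these splits cannot tell depth from cluster. Among D1 MSN-like nuclei, cluster 5 had a median of 3508 genes and a Pde10a level of 17.1 ± 1.5. Cluster 0 had 3362 genes and 25.0 ± 0.85. The part of depth in the class order was not tested.

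Microglia are not known to make the transcripts that mark striatal neurons, and served as the measure of background. Microglia-like nuclei had an Adcy5 level of 1.71 ± 0.13 and an Rgs9 level of 1.16 ± 0.13 (SD, n = 6), and 92.3% of them had an Adcy5 value of at least 1, against 99.2% of D1 and 27.2% of glutamatergic neuron-like nuclei. With a table corrected for depth, a value of 1 in a shallow nucleus need not be 1 molecule. Levels in D1 MSN-like nuclei relative to microglia-like nuclei were 5.67 for Pde10a, 5.30 for Rgs9, 3.80 for Pde1b, 3.22 for Gnal, 2.94 for Adcy5, 2.56 for Gng7, 1.91 for Arpp21, 1.39 for Ppp1r1b and 0.99 for Arpp19. Values at or below the microglia-like level, which include all 3 other neuron classes for Ppp1r1b, Adcy5, Gnal, Gng7, Pde1b and Rgs9, are not read as expression here. The mean of Ppp1r1b in eccentric MSN-like nuclei, 0.493 ± 0.039, was also below the microglia-like level. A value of at least 1 was however found in 37.9% ± 3.8 of eccentric MSN-like against 23.9% ± 3.7 of microglia-like nuclei (SD, n = 6). The mean alone therefore does not decide whether eccentric MSN-like nuclei express Ppp1r1b. Microglia-like nuclei were shallower than the neuron classes, with a median of 1905 genes, so a lower value there does not show that a gene is absent. Arpp19 is made by most cell types, so microglia give no background for it.

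**Figure D2:**
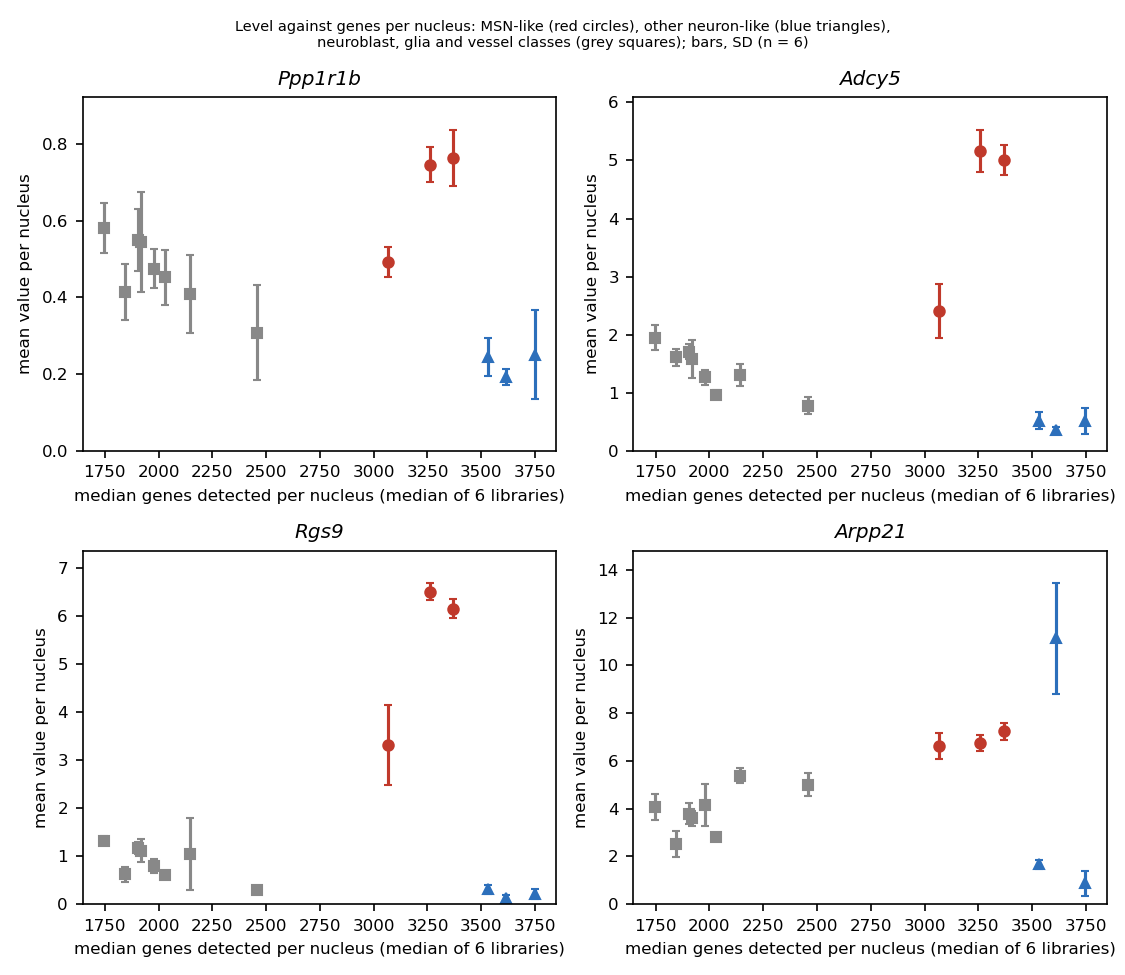
Mean level per nucleus of Ppp1r1b, Adcy5, Rgs9 and Arpp21 (vertical axes, depth-corrected value) against the median number of genes detected per nucleus in 14 classes; points are means and bars SDs of 6 libraries. Grey glial, neuroblast and vascular classes lie at 2458.5 genes or fewer and above the blue non-MSN neuron classes for Ppp1r1b and Adcy5, while the D1 and D2 MSN-like classes in red are the highest points in all panels but Arpp21.

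D1 and D2 MSN-like nuclei of the same library differed by small, steady amounts. Arpp19 had the largest difference, a D1 minus D2 log2 value of -0.38 ± 0.08 (SD, n = 6 libraries), lower in D1 in 6 of 6 libraries. Gng7 followed at -0.26 ± 0.05, Gnal at -0.17 ± 0.03 and Pde10a at -0.16 ± 0.02, each lower in D1 in 6 of 6 libraries. Thus both G protein subunits and Pde10a were higher in the D2 class, the class marked by Adora2a. Rgs9 (-0.08 ± 0.04) and Adcy5 (-0.04 ± 0.03) were also lower in D1 in 6 of 6 libraries, by less than 6% in the ratio of means for both. Arpp21 was the only member higher in D1 in 6 of 6 libraries, at 0.10 ± 0.02, and Ppp1r1b and Pde1b had mixed signs. Over all 13460 genes compared, 23.7% were higher and 7.36% lower in D1 in every library, with a median difference of 0.07. The classes were made from the nuclei themselves, so these are descriptions without a test. Median genes per nucleus were 3369.5 in D1 and 3260.0 in D2 MSN-like nuclei, and the part of depth in these differences was not tested.

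Within each class 3 clusters could be told apart, and several members varied more between them than between D1 and D2. The MSN clusters are called here by number: 0, 5 and 14 are D1 MSN-like, and 3, 8 and 11 are D2 MSN-like. Cluster 5, led by Pdyn, Drd3 and Ntn1, and cluster 8, led by P2ry1, Drd2 and Adora2a, had a higher summed level of a list of ventral striatum genes (3.48 and 2.89) than clusters 0 and 3 (1.49 and 1.49), and a lower one of dorsal striatum genes (1.56 and 1.50 against 6.01 and 5.49). Pde10a was 25.0 ± 0.85 in cluster 0 and 17.1 ± 1.5 in cluster 5, and 28.1 ± 0.70 in cluster 3 and 20.2 ± 1.3 in cluster 8 (SD, n = 6). Rgs9 showed the same pattern, with 6.89 ± 0.34 against 4.92 ± 0.32 and 7.39 ± 0.17 against 5.64 ± 0.35. The log2 difference of cluster 0 from cluster 5 was 0.55 ± 0.14 for Pde10a, 0.49 ± 0.12 for Rgs9 and 0.21 ± 0.07 for Adcy5, and that of cluster 3 from cluster 8 was 0.48 ± 0.08, 0.39 ± 0.11 and 0.22 ± 0.09, all positive in 6 of 6 libraries. Pde1b was also positive in 6 of 6 in both pairs, at 0.18 ± 0.05 and 0.11 ± 0.09. Arpp21 ran the other way, at -0.12 ± 0.06 and -0.11 ± 0.06, negative in 6 of 6 libraries. Of all genes, 8.84% were higher and 22.4% lower in every library for clusters 0 and 5, and 8.09% and 16.9% for clusters 3 and 8. The cyclase, both phosphodiesterases and Rgs9 were thus all lower in the clusters with more ventral striatum signal, and Arpp21 was higher there, while Ppp1r1b and Gng7 had mixed signs in both pairs. Arpp19 was higher in cluster 0 than 5 in 6 of 6 libraries (0.26 ± 0.06) but mixed in clusters 3 and 8, and Gnal was higher in cluster 3 than 8 in 6 of 6 (0.13 ± 0.03) but mixed in clusters 0 and 5. Median genes per nucleus were 3362 in cluster 0, 3508 in cluster 5, 3248 in cluster 3 and 3351 in cluster 8, and the part of depth in these differences was not tested.

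Clusters 14 and 11 are a D1 and D2 pair that share Zp3r, Gm49906 and Myo3b among their leading genes. Cluster 14 had the highest Arpp21 of the MSN clusters, 8.61 ± 0.45, and the lowest Gng7, 2.51 ± 0.18 (SD, n = 6). Against cluster 0 its log2 difference was 0.34 ± 0.06 for Arpp21, 0.23 ± 0.04 for Gnal, -0.17 ± 0.05 for Gng7 and -0.20 ± 0.05 for Rgs9, with the same sign in 6 of 6 libraries. Against cluster 3, cluster 11 gave 0.16 ± 0.06 for Arpp21, -0.24 ± 0.07 for Gng7 and -0.35 ± 0.08 for Rgs9, again with the same sign in 6 of 6 libraries, and 0.03 ± 0.04 for Gnal, with mixed signs. Over all genes, 27.1% had the same sign in every library for clusters 14 and 0, and 24.1% for clusters 11 and 3. Higher Arpp21 with lower Gng7 and Rgs9 was therefore common to both, and the higher Gnal was not. Adcy5 was higher in cluster 14 than 0 in 6 of 6 libraries (0.06 ± 0.04) but mixed in clusters 11 and 3. Pde10a was lower in cluster 11 than 3 in 6 of 6 (-0.07 ± 0.03) but mixed in clusters 14 and 0. Median genes per nucleus were 3255 in cluster 14, 3362 in cluster 0, 3200 in cluster 11 and 3248 in cluster 3. The part of depth in the differences between these clusters was not tested. Eccentric MSN-like nuclei departed further: Pde1b was 1.39 ± 0.30, Gng7 1.09 ± 0.26 and Adcy5 1.08 ± 0.25 log2 units higher in D1 MSN-like than in eccentric MSN-like nuclei, and Arpp21 only 0.13 ± 0.13.

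**Figure D3:**
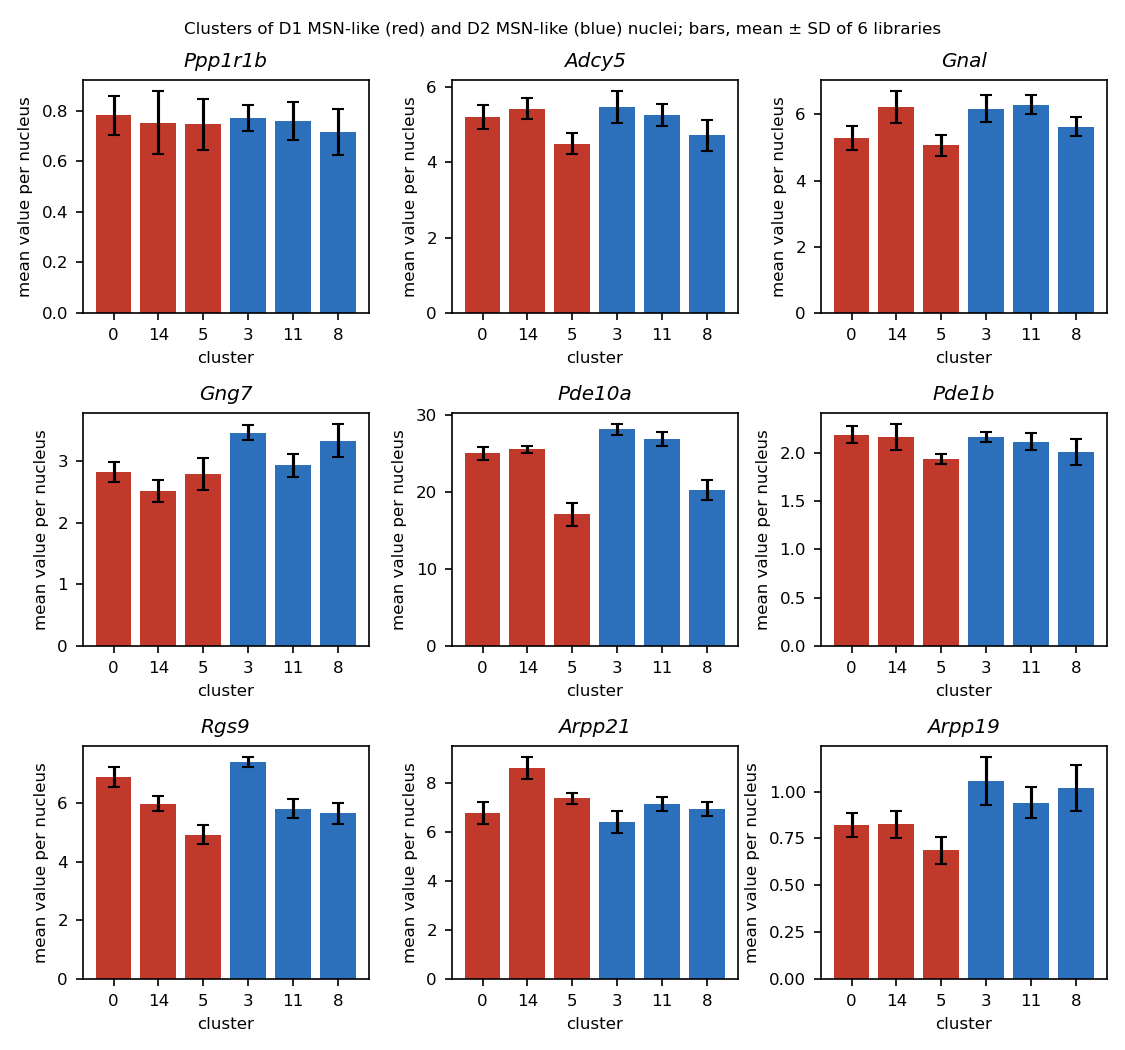
Mean level per nucleus (depth-corrected value) of the 9 genes in the 3 D1 MSN-like clusters (0, 14 and 5, red) and the 3 D2 MSN-like clusters (3, 11 and 8, blue); bars are means and whiskers SDs of 6 libraries. Pde10a and Rgs9 are lower in clusters 5 and 8 than in clusters 0 and 3, and Arpp21 is highest in cluster 14 at 8.61.

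Across the 14 classes, the 2 closest pairs of members were Adcy5 with Gng7 and Adcy5 with Rgs9. For Rgs9, only the D2, D1, eccentric MSN-like and mural-like classes lay above the microglia-like level, at 5.61, 5.30, 2.85 and 1.14 times it. The same classes alone lay above it for Adcy5, at 3.03, 2.94, 1.41 and 1.14 times, and for Gnal. For Gng7 the endothelial-like and oligodendrocyte-like classes did so too, at 1.09 and 1.03 times. Only D1, D2 and mural-like classes lay above it for Ppp1r1b, and D1, D2 and eccentric MSN-like classes for Pde1b. Most points behind the correlations of these genes are thus values not read as expression. Pearson's r of the log2 class means was 0.985 for Adcy5 and Gng7, 0.974 for Adcy5 and Rgs9 and 0.950 for Gng7 and Rgs9 (n = 14 classes, which share libraries and differ in depth). Ppp1r1b also followed Gng7, at 0.955, and Gnal followed Pde1b, at 0.953. Arpp21 stood apart, with r between 0.289 and 0.528 to the other 8. Among the 14400 genes compared, with the members themselves left out of the ranking, the most alike were Gm10754, Syndig1l and Rarb for Rgs9 (0.975, 0.950 and 0.947), Slc35f3, Ptpn5 and Gm42722 for Pde10a (0.969, 0.961 and 0.958), and Lrrc10b and Hpca for Ppp1r1b (0.954 and 0.949). For Adcy5 they were Tmem158, Gm10754 and Strn, for Gng7 Tmem158, Hpca and Lrrc10b, for Gnal Gm10754, Ric8b and Osbpl8, and for Pde1b Myh7, Serpina9 and Ric8b, all between 0.939 and 0.954. Ric8b is known as a chaperone of the olfactory alpha subunit. Arpp21 was most like Cacna2d1 (0.909), Inka2 (0.879) and Homer1 (0.855), and Arpp19 most like Foxp1 (0.910), Hpca (0.907) and Ppp3ca (0.867).

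The promoter windows of Adcy5, Gng7 and Rgs9, the genes of the 2 closest pairs, are shown to let their sequences be compared. Each is 300 bases, from RefSeq on GRCm38.p6, read 5′ to 3′ on the gene's strand, from chr16:35154614-35154913 (plus strand), chr10:81014876-81015175 (minus strand) and chr11:109298132-109298431 (minus strand). Capitals mark a GC box (GGGCGG on either strand) or the core of the cyclic AMP response element (TGACG on either strand, which lies within the full site TGACGTCA).
Adcy5: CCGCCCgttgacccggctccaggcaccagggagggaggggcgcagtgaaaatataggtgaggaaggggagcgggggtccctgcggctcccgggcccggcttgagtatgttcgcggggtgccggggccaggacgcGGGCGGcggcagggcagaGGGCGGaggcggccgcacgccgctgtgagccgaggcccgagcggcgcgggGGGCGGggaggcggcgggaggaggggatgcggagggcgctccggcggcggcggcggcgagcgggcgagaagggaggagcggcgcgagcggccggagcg
Gng7: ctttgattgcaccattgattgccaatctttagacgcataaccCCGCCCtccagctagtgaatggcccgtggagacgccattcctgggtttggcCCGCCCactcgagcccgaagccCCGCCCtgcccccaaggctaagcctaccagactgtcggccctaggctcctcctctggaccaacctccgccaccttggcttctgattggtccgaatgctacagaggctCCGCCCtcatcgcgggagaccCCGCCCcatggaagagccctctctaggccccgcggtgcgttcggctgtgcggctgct
Rgs9: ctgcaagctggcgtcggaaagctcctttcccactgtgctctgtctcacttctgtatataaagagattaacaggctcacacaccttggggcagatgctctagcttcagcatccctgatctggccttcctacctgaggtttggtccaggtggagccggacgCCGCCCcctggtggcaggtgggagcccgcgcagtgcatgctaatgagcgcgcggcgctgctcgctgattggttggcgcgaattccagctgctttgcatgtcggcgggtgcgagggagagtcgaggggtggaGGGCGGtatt
The Adcy5 window holds 4 GC boxes and is 79.0% G and C, the Gng7 window 5 boxes at 63.7%, and the Rgs9 window 2 boxes at 60.3% with 1 TATA box (TATAAA); the median over 32851 RefSeq windows of this length was 52.7%. A GC box is present in 35.7% of those windows, a TATA box in 13.6%, the TGACG core in 20.8% and the full site in 1.79%. None of the 3 windows shown holds this core. Another Gng7 window, at chr10:81001316-81001615 and not shown, holds 1 TGACG core and no GC box. No window of the 7 members whose windows were used holds the full site. These counts say only which letters are in these windows.

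The study compared heterozygous with wild-type striatum, and none of the 9 genes passed the test in any class. Limma called 0 of 9 members in D1 MSN-like nuclei at an adjusted p under 0.05, against 3 of 13415 genes (0.0224%), and 1 member had an unadjusted p under 0.05, against 9.96% of all genes. The counts in D2 MSN-like nuclei were 0 of 9 members and 1 of 12754 genes (0.00784%), with 1 member at an unadjusted p under 0.05, against 8.58% of all genes. Celsr3 itself missed the threshold there, at a log2 difference of -0.76 ± 0.13 (SE) in D1 (adjusted p = 0.133) and -0.64 ± 0.16 in D2 MSN-like nuclei (adjusted p = 0.296, limma over 3 against 3 libraries). It passed in D1 without wild-type replicate 1 (adjusted p = 0.0238) and with array weights (0.0119), and in D2 with array weights (0.0493, limma).

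Ppp1r1b had the largest difference of the 9 in D1 MSN-like nuclei. The wild-type libraries stood at 0.725, 0.741 and 0.654 and the heterozygous ones at 0.798, 0.799 and 0.867, so every heterozygous library was above every wild-type one. The log2 difference was 0.22 ± 0.08 (SE), with an unadjusted p of 0.0241 and an adjusted p of 0.428 (limma). The values in D2 MSN-like nuclei were 0.718, 0.765 and 0.681 against 0.730, 0.781 and 0.803, which overlap, at 0.10 ± 0.08 (adjusted p = 0.786, limma). The test of the difference between the 2 classes gave 0.12 ± 0.06 (unadjusted p = 0.0544, adjusted p = 0.975, limma), and 0 of 12699 genes (0%) passed it.

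Adcy5 had wild-type and heterozygous groups without overlap in the D1 and in the D2 class, which come from the same 6 libraries. It was, in D1 MSN-like nuclei, 4.69, 4.85 and 4.82 in wild-type and 5.33, 5.16 and 5.21 in heterozygous libraries, a log2 difference of 0.13 ± 0.06 (SE; adjusted p = 0.502, limma). In D2 MSN-like nuclei it was 4.69, 4.94 and 4.93 against 5.65, 5.37 and 5.42, a difference of 0.17 ± 0.06 (unadjusted p = 0.0185, adjusted p = 0.468, limma). After these values were seen, the 6 MSN clusters were examined singly, and Adcy5 was higher without overlap in all 6, from 0.12 ± 0.08 in cluster 11 to 0.20 ± 0.07 in cluster 3; 17 of 6890 genes (0.247%) were higher in this way and 37 (0.537%) lower. The clusters come from the same 6 libraries and are not separate evidence. When each library was rescaled by a size factor the difference was 0.07 ± 0.07 in D1 and 0.13 ± 0.08 in D2 MSN-like nuclei (adjusted p = 0.864 and 0.736, limma). The share of nuclei with a value of at least 1 could not show such a difference, since it was 99.2% in D1 and 98.9% in D2 MSN-like nuclei.

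Groups that did not overlap were common among all genes. They did not overlap for 3 of 9 members, all higher in heterozygous libraries, in D1 MSN-like nuclei, against 16.5% of all genes in either direction and 11.5% higher; besides Ppp1r1b and Adcy5 this was Rgs9, at 5.82, 6.10 and 6.10 against 6.28, 6.26 and 6.35 (0.07 ± 0.06 SE, adjusted p = 0.715, limma). For D2 MSN-like nuclei this held for 1 member, Adcy5, against 14.4% of all genes and 8.95% higher. The share of all genes without overlap in both classes was not counted. The summed level of 8 microglia markers in D1 MSN-like nuclei was 0.992 to 1.08 in wild-type and 0.914 to 0.945 in heterozygous libraries, without overlap, and that in D2 MSN-like nuclei 0.866 to 0.913 and 0.769 to 0.832; their part in these values was not tested.

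The other 6 members had log2 differences between -0.02 and 0.10 in both MSN classes. Gnal was 4.74, 5.86 and 5.44 in wild-type and 5.40, 5.32 and 5.32 in heterozygous D1 MSN-like nuclei, so the wild-type libraries lay on both sides of the heterozygous ones. Pde10a was 22.7, 22.3 and 22.8 against 24.0, 21.5 and 22.5, a difference of 0.00 ± 0.07 (SE). Arpp21 was 6.60, 7.58 and 7.44 against 7.41, 7.15 and 7.22, and Gng7 2.44, 2.91 and 2.80 against 2.76, 2.77 and 2.90. Wild-type replicate 1 was thus the lowest library of D1 MSN-like nuclei for Gnal, Gng7 and Arpp21, as it was for Adcy5 and Rgs9 above, and also for Pde1b, where the values were 1.99, 2.26 and 2.12 against 2.09, 2.10 and 2.08. For Arpp19 it was the highest, with 0.855, 0.762 and 0.690 against 0.799, 0.754 and 0.815. Without wild-type replicate 1, 214 genes in D1 and 120 in D2 MSN-like nuclei passed the threshold, and still 0 of the 9 members did; the Adcy5 difference was then 0.12 in D1 and 0.15 in D2. The median number of genes per D1 MSN-like nucleus was 3318 to 3398 in wild-type and 3275 to 3498 in heterozygous libraries, which overlap.

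**Figure D4:**
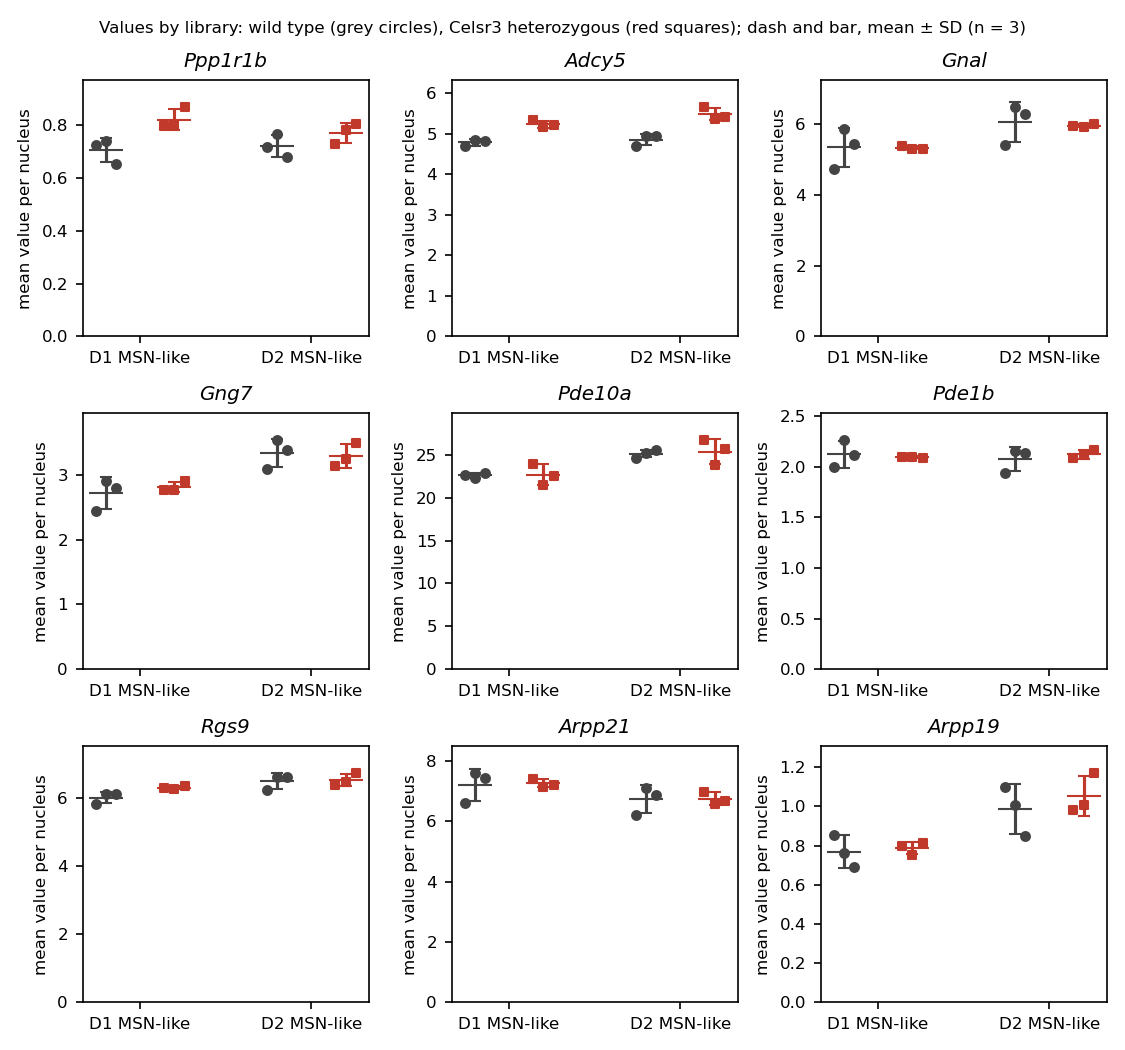
Mean level per nucleus (depth-corrected value) of the 9 genes in each library of D1 and D2 MSN-like nuclei; points are libraries, and dashes and bars the mean and SD of 3. Heterozygous libraries lie above all wild-type ones for Adcy5 in both classes and for Ppp1r1b and Rgs9 in the D1 class, and the groups overlap in every other panel.

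Over the 14 classes, between 3 and 9 members had enough signal to be tested and 0 passed, and in the classes other than D1 and D2 MSN-like 0% of all genes passed. All 9 members were tested in 11 of the classes. The groups did not overlap for Gng7 (-0.23 ± 0.10 SE) and Arpp21 (0.08 ± 0.08) in astrocyte-like nuclei, against 12.2% of all genes there, for Arpp19 (-0.23 ± 0.13) in microglia-like nuclei, against 10.2%, and for Arpp19 (-0.56 ± 0.33) in mural-like nuclei, against 9.38%. In astrocyte-like nuclei Gng7 (0.649) and Arpp21 (2.79) lay below the microglia-like levels (1.08 and 3.79). Those astrocyte-like values are not read as expression. In glutamatergic neuron-like nuclei Arpp21 was 11.6, 9.46 and 11.6 in wild-type and 15.4, 9.64 and 9.18 in heterozygous libraries, with heterozygous replicate 1, which also had the most of these nuclei (1543), alone at the top. That class holds clusters in unequal numbers from the 6 libraries.

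Over all nuclei of a library, D1 and D2 MSN-like nuclei together made up 26.7% to 44.4%, and Rgs9 within D1 MSN-like nuclei ran from 5.82 to 6.35. The part of class shares in the spread between libraries was not tested. With clusters weighted to the same mix in every library, which used 31 of the 38 clusters kept, 0 of the 9 members passed. The log2 difference of Rgs9 between genotypes was then 0.07 in place of -0.02 (adjusted p = 0.681, limma). Limma called 0 of 9 members and 0 of 14400 genes (0%), while 1430 genes (9.93%) had an unadjusted p under 0.05; the groups overlapped for all 9 members, against 19.3% of genes without overlap. Rgs9 was 2.10, 3.30 and 2.33 in wild-type and 2.64, 2.70 and 2.17 in heterozygous libraries, and Pde10a 8.82, 13.1 and 10.1 against 11.7, 10.3 and 9.02. Wild-type replicate 2, with 23.3% D1 and 21.1% D2 MSN-like nuclei the richest in MSNs, was the highest for 8 of the 9 genes. Arpp21 was the exception, at 4.86, 5.35 and 5.55 against 7.35, 4.79 and 4.70, and its highest library was heterozygous replicate 1, where glutamatergic neuron-like nuclei held 41.8% of the summed Arpp21 value against 6.36% in wild-type replicate 2.

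The wider pathway was described with 89 further genes: receptors, other G protein subunits, cyclases and phosphodiesterases, protein kinase A and its partners, the phosphatases and kinases around DARPP-32, partners of the Rgs9, Arpp19 and Arpp21 products, and CREB factors. In D1 MSN-like nuclei 0 of the 82 tested genes passed at an adjusted p under 0.05 and 12 had an unadjusted p under 0.05, all 12 higher in heterozygous libraries, beside 0.0224% and 9.96% of all genes and 5.7% that were higher at an unadjusted p under 0.05. For D2 MSN-like nuclei 0 of 82 passed and 12 had an unadjusted p under 0.05, of which 11 were higher, beside 0.00784%, 8.58% and, for higher ones, 4.08% of all genes. A higher mean in heterozygous libraries of D1 MSN-like nuclei was found for 63 of 82, with a median log2 difference of 0.11, beside 65.1% and 0.06 over all genes; after size-factor scaling these became 55 of 82 and 0.05, beside 49.5% and -0.0012. The same counts in D2 MSN-like nuclei were 57 of 82 with a median of 0.07, beside 60% and 0.04 over all genes, and after scaling 51 of 82 and 0.03, beside 48.8% and -0.0041.

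The gene with the smallest p of each group in D1 MSN-like nuclei is given with its values. Among the receptors it was Drd3, a dopamine receptor of the ventral striatum, at 0.072, 0.119 and 0.107 in wild-type and 0.180, 0.231 and 0.163 in heterozygous libraries (0.89 ± 0.19 SE, adjusted p = 0.204, limma). In D2 MSN-like nuclei Drd3 differed by 0.91 ± 0.24 (adjusted p = 0.306, limma), again without overlap. The ventral striatum list summed to 1.60 to 2.28 in wild-type and 1.77 to 2.32 in heterozygous D1 MSN-like nuclei, which overlap. The part of the ventral share in the Drd3 values of either class was not tested. Gnai1, an inhibitory alpha subunit, differed by 0.29 ± 0.11 (adjusted p = 0.430), Adcy9, another cyclase, by 0.24 ± 0.09 (0.432), and Akap7, an anchor of protein kinase A, by 0.26 ± 0.10 (0.461; all limma). Ppp1cb, a catalytic subunit of the phosphatase that DARPP-32 inhibits, differed by 0.29 ± 0.08 (adjusted p = 0.295), the phosphodiesterase Pde7a by 0.16 ± 0.09 (0.555), Mastl, the Arpp19 kinase, by 0.33 ± 0.14 (0.490) and Creb1, a transcription factor phosphorylated by protein kinase A, by 0.24 ± 0.08 (0.373; all limma).

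The gene bodies, per GENCODE on GRCm38, set limits on some of these values. Ppp1r1b spans chr11:98348404-98357796, Adcy5 chr16:35154877-35305738 and Pde10a chr17:8525372-8986648, each on the plus strand. Ppp1r1b is overlapped on the other strand by 1700003D09Rik, Pde10a by Gm17087, Arpp21 by 2310075C17Rik and 2900079G21Rik, and Gnal by Mppe1, with Chmp1b within Gnal on its own strand. All of these are in the table, and since the sources used here do not say whether counting used the strand, the values of these 4 members are uncertain to that extent.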

How the data were processed

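Nuclei came from dissected mouse striatum, flash frozen and kept in embedding compound, with libraries made by the 10x Genomics 3′ chemistry and sequenced on 1 lane, per the labels' protocols. The authors deposited 1 table of genes by nuclei whose whole-number values are handled here as a score, since they are corrected for depth: the submitters' processing notes name Cell Ranger, Seurat 4.1 and the mm10 (GRCm38) build, with no role, filter or strand setting. In 10.0% of nuclei, none of the 13152 genes with a mean under 0.05 had a value of 1 although at least 10 of them had a higher one. Count tests were therefore not used. Totals per nucleus ran from 4523 to 10638.

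The members and all gene lists were chosen with earlier results of these data known. Doublets were scored with Scrublet per library, whose own threshold marked 0.672% to 1.38% of nuclei; instead, a score above 0.25 removed a nucleus, and 6 clusters in which more than 40% scored so were removed whole. Nuclei were log-transformed and clustered without the members (scanpy 1.11.5; 2000 variable genes, 30 components, 15 neighbours, Leiden resolution 1.0), and a cluster was named where at least 3 markers of a list were raised over 2-fold and these were at least 40% of the list or included 1 of its top 10 genes. It kept no name where another list had more markers among the top 10 genes, or as many with at least 50% of that list raised. Of 44 clusters, 5 kept no name; one of them, cluster 2 (3506 nuclei), had 9 oligodendrocyte markers raised but a committed precursor marker among its top genes, and is not in the oligodendrocyte-like class. Within the D1 and D2 MSN-like classes, a call per nucleus from the same marker lists gave the same class for 93.8% of nuclei.

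For each class, log2(mean per nucleus + 0.01) per library was fitted with limma 3.58.1 (trended empirical Bayes). Genes were kept with a mean of at least 0.02 and a sum per library of at least 30. Both were averaged over the 6 libraries, so a gene low in some libraries could pass. Benjamini-Hochberg adjustment was made over all genes kept, with a threshold of 0.05. Log2 differences are on the scale of log2(mean per nucleus + 0.01) and understate changes of low genes. The D1 against D2 difference was fitted in 1 model with the library as a block. The scripts were tested on simulated data. Named were all 9 members, Celsr3, any called gene of the pathway list, the gene with the smallest p per group of that list in D1 MSN-like nuclei, and the 3 genes most like each member in r over the 14 classes, of which 1 is not reported here. The alternatives are in the closing section. RefSeq promoter windows were used for 7 of the 9 members. Windows on chromosome 18, where Gnal lies, were left out, and Ppp1r1b had no entry. Gene positions are from GENCODE.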

Additional observations from a re-analysis of the deposited data

How the results depend on the processing

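None of the 9 genes passed the threshold under any alternative run, which were other pseudocounts, no filter, size-factor scaling, each library left out, the block, array weights, doublet-scored nuclei kept, a fixed range of genes per nucleus, shares of nuclei, D1 or D2 called per nucleus and, over all nuclei, clusters weighted to the same mix. Ppp1r1b in D1 MSN-like nuclei kept its sign throughout (0.13 to 0.25; adjusted p 0.0723 to 0.854), as did Adcy5 in D1 (0.069 to 0.14; 0.180 to 0.907) and D2 MSN-like nuclei (0.13 to 0.19; 0.162 to 0.818; all limma), leaving out shares of nuclei, which are saturated for Adcy5. Celsr3 passed in D1 MSN-like nuclei without wild-type replicate 1 and with array weights, and in D2 with array weights. The numbers of all genes called moved more. For D1 MSN-like nuclei they were 476 with array weights and 1 to 214 with a library left out, the highest without wild-type replicate 1 and the lowest without heterozygous replicate 1 or 2. For D2 MSN-like nuclei they were 2 without a filter, 170 with array weights, 8 with D1 or D2 called per nucleus and 0 to 120 with a library left out; over all nuclei, shares gave 1. Same-numbered libraries correlated at 0.27, 0.02 and 0.19 in their deviations in D1 MSN-like nuclei. Wild-type replicates 1 and 3 correlated best with the same number, and replicate 2 with heterozygous replicate 3. The deviations within a group depend on each other, so these values cannot decide whether the numbers pair the libraries. With the number as a block, 8 genes and 0 members were called in D2 MSN-like nuclei.
The differences that changed sign ran, as reported, from -0.14 (Gng7 over all nuclei) to 0.10 (Arpp19 in D2 MSN-like nuclei), and the cause was not tested. With size-factor scaling they became, over all nuclei, -0.056 for Ppp1r1b, -0.020 for Adcy5 and -0.0034 for Arpp21. It gave in D1 MSN-like nuclei -0.057 for Gnal, -0.0091 for Gng7, -0.060 for Pde10a, -0.049 for Arpp21 and -0.019 for Arpp19. It gave in D2 MSN-like nuclei -0.030 for Pde10a, -0.010 for Pde1b, -0.036 for Rgs9 and -0.039 for Arpp21, and for the D1 against D2 difference of Arpp21 -0.0097. Array weights gave, over all nuclei, 0.052 for Gnal, 0.063 for Pde1b, 0.086 for Rgs9, -0.081 for Arpp21 and 0.037 for Arpp19. They gave in D1 MSN-like nuclei -0.044 for Gnal, -0.035 for Pde10a and -0.038 for Arpp21, and in D2 -0.037 for Pde10a, -0.016 for Rgs9 and -0.049 for Arpp21. Shares of nuclei gave, over all nuclei, -0.036 for Adcy5, 0.0071 for Gnal and -0.013 for Arpp21. They gave -0.0021 for Gnal, -0.00023 for Rgs9 and -0.0010 for Arpp21 in D1, and 0.00050 for Gnal and 0.0016 for Gng7 in D2 MSN-like nuclei. Clusters weighted to the same mix gave, over all nuclei, 0.025 for Gnal, 0.010 for Pde10a, 0.00049 for Pde1b and 0.069 for Rgs9.
With each library left out in turn, the values over all nuclei ran from -0.10 to 0.16 for Ppp1r1b, -0.046 to 0.21 for Adcy5, -0.16 to 0.15 for Gnal and -0.24 to 0.035 for Gng7. They ran from -0.16 to 0.12 for Pde10a, -0.18 to 0.16 for Pde1b, -0.15 to 0.17 for Rgs9 and -0.14 to 0.18 for Arpp21. D1 MSN-like nuclei gave -0.080 to 0.073 for Gnal, -0.022 to 0.10 for Gng7, -0.049 to 0.050 for Arpp21, -0.040 to 0.038 for Pde10a, -0.063 to 0.027 for Pde1b and -0.033 to 0.12 for Arpp19. In D2 they were -0.014 to 0.059 for Pde1b, -0.023 to 0.022 for Rgs9, -0.054 to 0.045 for Arpp21, -0.10 to 0.028 for Gnal, -0.070 to 0.024 for Gng7, -0.0042 to 0.18 for Arpp19 and -0.023 to 0.059 for Pde10a. For the D1 against D2 difference they were -0.024 to 0.0030 for Pde10a and -2.6e-05 to 0.019 for Arpp21. The depth before correction is not known, so its limit on low genes such as Ppp1r1b and Arpp19 could not be given.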

Other observations

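Cluster 12, 1317 nuclei that no marker list named, had high levels of several of the 9 genes at a low depth. Its median number of genes per nucleus was 1721.5, against 3369.5 in D1 MSN-like nuclei. Ppp1r1b was 0.904 ± 0.12 and Arpp19 1.35 ± 0.20 there (SD, n = 6), both above D1 MSN-like nuclei (0.764 ± 0.074 and 0.779 ± 0.057), while Rgs9 was 2.14 ± 0.35 and Pde10a 10.2 ± 2.1, both below. Penk was 2.43 ± 0.44 and Tac1 1.11 ± 0.18 in the same nuclei, 2 neuropeptide genes of the D2 and the D1 type. No member passed the test between genotypes in this cluster (limma called 0 of 9 members and 0 of 4858 genes, while 187 genes and 0 members had an unadjusted p under 0.05).

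Within microglia-like nuclei the members did not all move the same way with depth. Gng7 was 1.29 ± 0.12 in nuclei with fewer genes than the library median and 0.867 ± 0.17 in those with more, higher in the former in 6 of 6 libraries, as were Pde10a (4.54 ± 0.58 against 3.44 ± 0.39) and Rgs9 (1.33 ± 0.095 against 0.991 ± 0.22). Ppp1r1b ran the other way, at 0.445 ± 0.072 against 0.655 ± 0.093, higher in nuclei with more genes in 6 of 6 libraries (SD, n = 6).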
